A study of Homo sapiens with 2 samples.

Results

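TXNIP, ARRDC4, ARRDC3, MLXIP, MLX and MLXIPL form the glucose-sensing module that is built around the transcription factor MondoA. They were examined in HEK293 cells, a human embryonic kidney line, that were either wild-type (WT) or PERK-deficient (PERK-KO). The 6 genes were chosen by symbol, and each has 1 row among the 25277 rows of both gene tables. All 6 reached an FPKM (a fragment count scaled by exon length and by sequencing depth) of at least 1 in both samples. Both samples are cells of passage 15-20 kept for 12 h in OXPHOS medium, in which galactose and pyruvate replace glucose and the cells depend on oxidative phosphorylation. The PERK-KO cells were made with CRISPR/Cas9 and grown from single seeded cells, so an effect of PERK loss and a difference between clones cannot be told apart. There was 1 sample per genotype, and no sample from glucose-containing medium was analysed here. No difference could therefore be tested, and the limits given after each FPKM are the confidence limits deposited with it, which cover the uncertainty of 1 library only and say nothing of how cultures vary.

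MondoA, encoded by MLXIP, and its paralogue ChREBP, encoded by MLXIPL, are basic helix-loop-helix leucine zipper factors that bind DNA together with MLX. Glucose 6-phosphate and related hexose phosphates bring the MondoA-MLX pair into the nucleus, where it binds carbohydrate response elements, which are paired copies of an E-box-like sequence. TXNIP and ARRDC4 are its best known direct targets, and both encode alpha-arrestins that lower glucose uptake, TXNIP by promoting endocytosis of glucose transporters. TXNIP also binds thioredoxin, and its mRNA has been linked to ER stress through PERK and IRE1. ARRDC3 encodes an alpha-arrestin that acts on beta-adrenergic receptors and other membrane proteins.

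The upstream sequences of TXNIP and ARRDC4 are shown because both genes are known targets of MondoA-MLX, and that of MLXIP because this gene had the largest ratio of the module. Each run holds the bases before the RefSeq start site and was located on GRCh37, the build of the gene tables. TXNIP is on the plus strand (chr1:145438240-145438489), as are ARRDC4 (chr15:98503683-98503932) and MLXIP (chr12:122516412-122516661). Capitals mark the carbohydrate response element pattern in TXNIP (CACGNG and CNCGNG, 5 bases apart), the E-box CACGTG in ARRDC4 and the cAMP response element TGACGTCA in MLXIP, each searched on both strands.
TXNIP: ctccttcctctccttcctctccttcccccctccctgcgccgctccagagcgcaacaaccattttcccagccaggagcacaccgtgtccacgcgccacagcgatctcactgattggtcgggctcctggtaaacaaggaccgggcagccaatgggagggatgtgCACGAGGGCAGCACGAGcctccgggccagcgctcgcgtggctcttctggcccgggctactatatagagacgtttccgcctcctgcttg
ARRDC4: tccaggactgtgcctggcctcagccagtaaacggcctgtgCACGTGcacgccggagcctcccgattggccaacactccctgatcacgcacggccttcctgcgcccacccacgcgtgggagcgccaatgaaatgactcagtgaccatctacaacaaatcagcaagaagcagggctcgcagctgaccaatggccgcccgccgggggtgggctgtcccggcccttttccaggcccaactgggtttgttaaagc
MLXIP: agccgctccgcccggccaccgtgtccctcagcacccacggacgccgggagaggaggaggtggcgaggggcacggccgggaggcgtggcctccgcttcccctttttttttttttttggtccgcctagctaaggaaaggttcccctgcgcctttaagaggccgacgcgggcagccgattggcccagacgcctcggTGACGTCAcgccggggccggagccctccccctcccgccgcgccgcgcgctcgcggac

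The TXNIP element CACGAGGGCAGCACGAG lies between positions -88 and -72 from the start site. Of 35116 promoters of the same length, 149 (0.424%) hold a match to the pattern, and TXNIP was the only member with one. CACGTG was found in ARRDC4 between -210 and -205 and in MLX between -50 and -45, against 6.34% of all promoters. The letters CCAAT, the sequence of the CCAAT box, were not among the motifs first planned for the search. They were found upstream of 5 of the 6 members and in 32.0% of all promoters. For MLXIPL no match to any of these motifs was found. TXNIP has 2 CCAAT matches in front of its carbohydrate response element, the nearer between -105 and -101, and ARRDC4 has 3. TGACGTCA was searched after the MLXIP sequence had been seen. It lies between -57 and -50 in MLXIP and is present in 1.65% of all promoters. The table of start sites held all 6 members, with a further start site each for TXNIP and ARRDC3, upstream of which none of these motifs was found. No match overlapped another. A match describes the letters in these windows and does not show that a factor was bound. Nor does a missing match show that a gene lacks such an element. Only these patterns without mismatch, in the 250 bases upstream of a start site, were searched.

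PERK is encoded by EIF2AK3, whose FPKM was 5.61 (5.11 to 6.12) in WT and 3.89 (3.44 to 4.34) in PERK-KO. An mRNA level does not show whether a full-length protein is made, so it is a weak check of the genotype. Of the markers listed for HEK293 cells, NEFL was at 44.9 FPKM in WT and 33.4 in PERK-KO, and CDH2 at 23.5 and 21.3. PAX2 and NEFH stayed under 1 FPKM in both, and NEFM was at 0.662 FPKM (0.446 to 0.877) in WT and 5.21 (4.54 to 5.87) in PERK-KO. IRS4, which HEK293 cells usually express strongly, was at 0.121 FPKM (0.0404 to 0.202) in WT and at 27.1 (25.8 to 28.4) in PERK-KO, so the lines also stood apart in genes outside the module. The part of this difference in the results below was not tested. Among the 6 markers of other cells, ALB, CDH5, INS and UCP1 were listed at 0 in both samples, and MYOD1 and PTPRC stayed below 1 FPKM.

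The level of MLXIP was higher in PERK-KO than in WT, and it was the only member past a 1.5-fold difference. It lies on chromosome 12 from 122516652 to 122628967 on the plus strand. Its FPKM was 11.4 (10.7 to 12.1) in WT and 20.1 (19.2 to 21.0) in PERK-KO, so the limits of both samples were far apart. The ratio of PERK-KO to WT was 1.76, and dividing the limits by each other gave a range from 1.59 to 1.96. On the log2 scale the difference was 0.82, which placed MLXIP 744th from the top among the 14594 genes that reached 1 FPKM in either sample. In a culture measured as a whole, more RNA per cell and more expressing cells cannot be told apart. A count of 1 of 6 members stands beside 1481 of all 14594 genes (10.1%) that exceeded 1.5-fold in this direction, and none of the members was more than 1.5-fold lower, against 1100 genes (7.54%). With non-overlapping limits required as well, MLXIP still counted, beside 7.90% of all genes higher and 5.39% lower. The limits alone, whatever the fold, were apart in 44.8% of all genes and in 1 of the 6 members.

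The intervals correspond to plain counting of about 1204 fragments for MLXIP in WT and 1875 in PERK-KO, the largest numbers of the module. For TXNIP the same calculation gave 170 and 116 fragments, for MLXIPL 192 and 126, for ARRDC3 245 and 224, for ARRDC4 393 and 289, and for MLX 636 and 653. The low genes TXNIP and MLXIPL thus had limits 15.4% and 14.5% away from their values in WT and 18.6% and 17.8% in PERK-KO, whereas those of MLXIP were 5.76% and 4.62% away. At this depth the limits of WT and PERK-KO overlapped for TXNIP and MLXIPL, although each value lay outside the limits of the other sample.

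MLX, the obligate partner of both Mondo factors, had the highest value of the module in each sample. In PERK-KO, MLX was only 1.01 times as high as MLXIP, with limits that overlapped. It lies on chromosome 17 from 40719078 to 40725221 on the plus strand. Its FPKM was 17.5 (16.1 to 18.9) in WT and 20.2 (18.7 to 21.8) in PERK-KO, a ratio of 1.16 (0.987 to 1.35) with limits that overlapped. The end of its row shares 894 genomic bases with PSMC3IP on the opposite strand, which was at 35.3 FPKM in WT and 29.3 in PERK-KO. How many of these bases are exonic was not counted, and the sources used here do not state that reads were counted by strand. The value of PSMC3IP was lower in PERK-KO and that of MLX higher.

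ChREBP is best known from liver and adipose tissue, and its gene MLXIPL was low in HEK293 cells. It lies on chromosome 7 from 73007524 to 73038870 on the minus strand. Its FPKM was 3.48 (2.98 to 3.98) in WT and 2.54 (2.08 to 2.99) in PERK-KO. The ratio was 0.729 (0.524 to 1.005), the lowest of the module, and the limits of both samples overlapped narrowly. The FPKM does not separate the ChREBP isoforms.

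FPKM is scaled by length, and the levels of the transcription factors are set side by side within a sample here. Ratios between the libraries drift with length, as described below, so FPKM may keep a dependence on length in at least 1 library. Neither these proportions nor their differences between the samples are corrected for it. Genes near MLXIP in length had a median log2 ratio of 0.18, those near MLXIPL 0.07 and those near MLX 0.02. The value of MLX may also hold reads from the stretch shared with PSMC3IP. MLXIP exceeded MLXIPL 3.28-fold in WT and 7.93-fold in PERK-KO, so that MLXIP made up 76.6% of the summed FPKM of both Mondo genes in WT and 88.8% in PERK-KO. This sum was 14.9 FPKM in WT and 22.6 in PERK-KO. MLX was 1.54 times as high as MLXIP in WT, with limits that did not overlap, and 1.01 times as high in PERK-KO, where the limits overlapped. Relative to MLXIP and MLXIPL together, MLX was at 1.18 in WT and at 0.894 in PERK-KO.

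**Figure D1:**
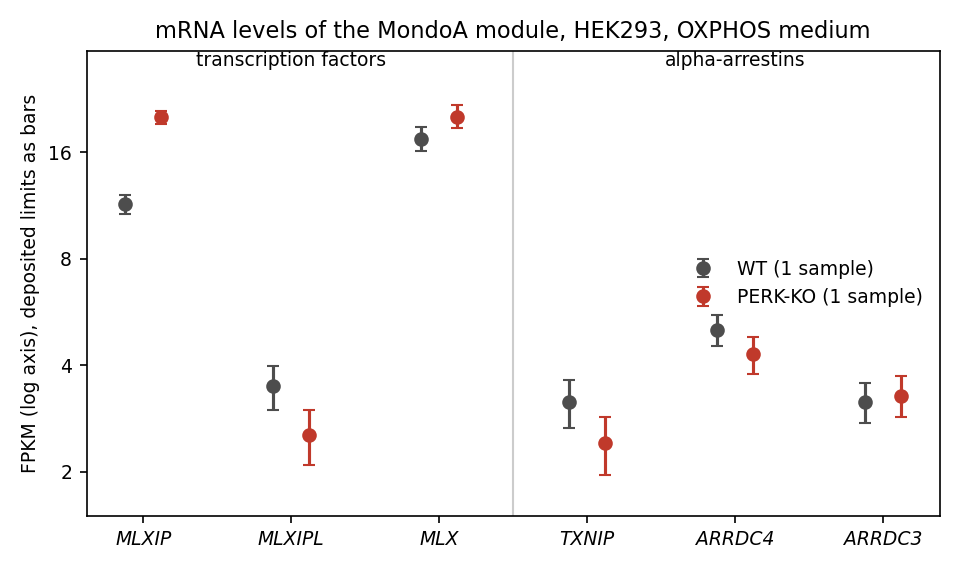
FPKM of the 6 genes on a log axis in WT (grey) and PERK-KO cells (red), 1 sample each, with the deposited confidence limits as bars. MLXIP is the only gene whose bars do not overlap, at 11.4 and 20.1 FPKM.

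Both known target genes had lower values in PERK-KO, where MLXIP had a higher one, with limits that overlapped. TXNIP, on chromosome 1 from 145438462 to 145442628 on the plus strand, had an FPKM of 3.14 (2.66 to 3.63) in WT and 2.41 (1.96 to 2.85) in PERK-KO. The PERK-KO value was 23.4% lower, a ratio of 0.766 (0.540 to 1.07), and the limits overlapped. ARRDC4, on chromosome 15 from 98503933 to 98517068 on the plus strand, had 5.04 (4.53 to 5.54) in WT and 4.29 (3.78 to 4.79) in PERK-KO. It was 14.9% lower, a ratio of 0.851 (0.682 to 1.06), again with overlapping limits. The limits of neither gene separated the samples. Their sum was 8.18 FPKM in WT and 6.69 in PERK-KO, and ARRDC4 exceeded TXNIP 1.60-fold and 1.78-fold.

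TXNIP was a low gene in both samples. Of the 14151 genes that reached 1 FPKM in WT, 20.2% lay below it, and 14.0% of 14235 genes did so in PERK-KO. ARRDC4 lay above 31.6% and 26.1% of these genes, and MLXIP above 53.7% and 66.9%. In WT cells the order of the levels was MLX, MLXIP, ARRDC4, MLXIPL, ARRDC3 and TXNIP, and the limits of the last 3 overlapped from each neighbour to the next. In PERK-KO cells ARRDC3 stood above MLXIPL, and the limits overlapped between MLX and MLXIP, between ARRDC3 and MLXIPL, and between MLXIPL and TXNIP.

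ARRDC3 was at nearly the same level in both samples. It lies on chromosome 5 from 90664541 to 90679149 on the minus strand. Its FPKM was 3.15 (2.75 to 3.55) in WT and 3.28 (2.85 to 3.72) in PERK-KO, a ratio of 1.04 (0.801 to 1.35). Its row shares 2986 genomic bases with that of the antisense gene ARRDC3-AS1, which was at 3.04 FPKM (2.53 to 3.55) and 2.55 (2.05 to 3.05). These bases can include introns, and the exon bases among them were not counted. Where exons lie in the shared stretch, reads of both genes cannot be told apart without strand. The value of ARRDC3 is therefore uncertain to an unknown extent.

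Within the alpha-arrestin family, TXNIP, ARRDC4 and ARRDC3 were minor transcripts beside ARRDC1, whose protein takes part in the release of vesicles from the plasma membrane. ARRDC1 was at 49.1 FPKM (45.8 to 52.5) in WT and 38.7 (35.7 to 41.7) in PERK-KO, a ratio of 0.788 with limits that did not overlap. It held 74.8% of the summed FPKM of the 6 alpha-arrestin genes in WT and 71.5% in PERK-KO, and TXNIP held 4.79% and 4.45%. ARRDC2 was at 5.12 (4.43 to 5.82) and 5.41 (4.66 to 6.17), and ARRDC5 was below 1 FPKM in both. None of the 5 family genes that reached 1 FPKM was past 1.5-fold, and their median log2 ratio was -0.23, compared with 0.04 over all genes tested. Of the beta-arrestin genes, ARRB2 was at 50.5 FPKM in WT and 41.4 in PERK-KO, and neither ARRB1 nor ARRB2 was past 1.5-fold.

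**Figure D2:**
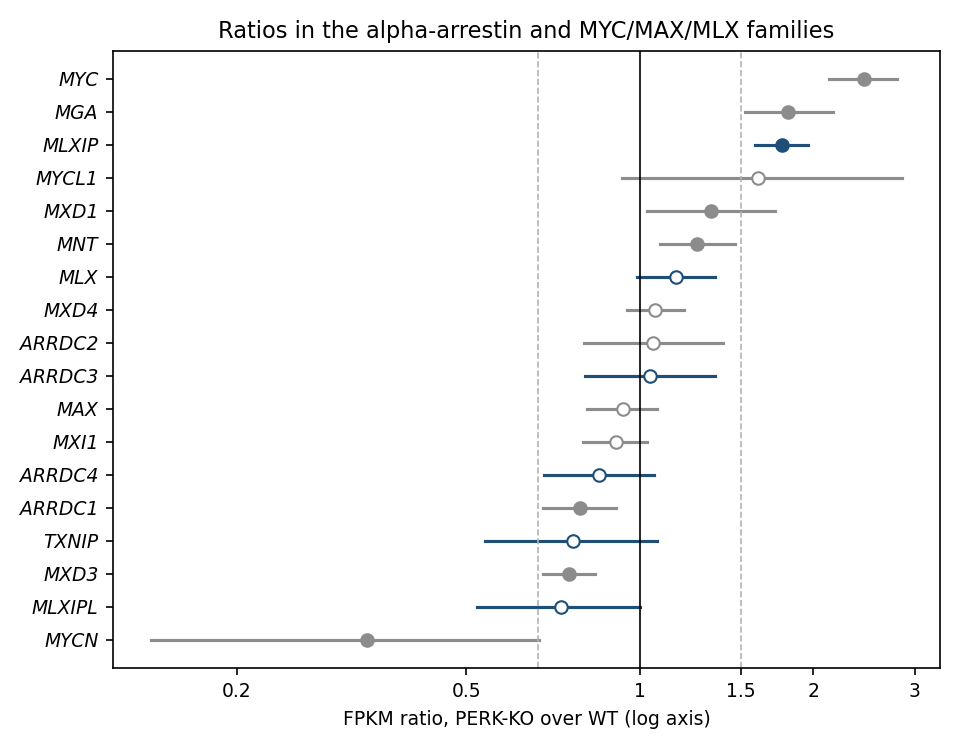
Ratio of FPKM in PERK-KO to that in WT on a log axis for the module (blue), the other alpha-arrestins and the MYC/MAX/MLX network (grey), with lines from the lowest to the highest ratio the limits allow. Filled points have limits that do not overlap, dashed lines mark 1.5-fold, and among the blue points only MLXIP is filled.

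Ratios in these libraries moved with transcript length, and this bears on MLXIP, the longest member. The exon bases inside its row came to 5476, compared with 2360 for MLX, 2888 for TXNIP, 3252 for MLXIPL, 4062 for ARRDC4 and 4146 for ARRDC3. When the 12780 genes with a length were split by length into 5 groups of like size, the median log2 ratio went from -0.26 in the group of the shortest to 0.27 in that of the longest, to which MLXIP belongs. In the longest group 17.3% of genes exceeded 1.5-fold in favour of PERK-KO. The 200 genes nearest to MLXIP in length had a median log2 ratio of 0.18, and MLXIP lay 0.64 above it. TXNIP and ARRDC4 lay 0.46 and 0.42 below the median of genes of their length. MLXIPL lay 0.53 below it, ARRDC3 0.11 below it, and MLX 0.19 above it. These distances have no error from replicates. With the same subtraction 954 of the 12780 genes were past 1.5-fold in favour of PERK-KO and 692 were lower. Counts given below after this subtraction stand beside these numbers.

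**Figure D3:**
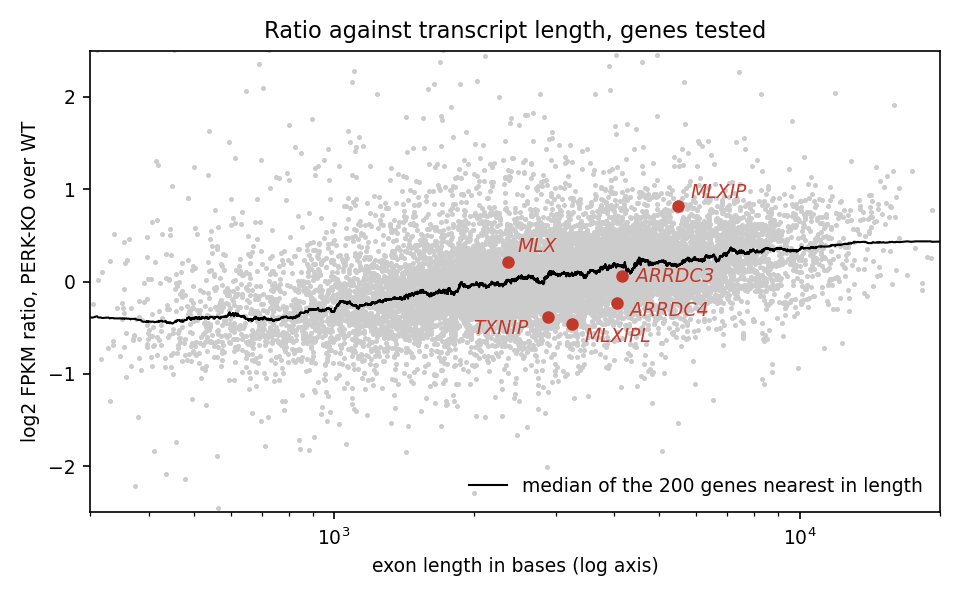
Log2 ratio of PERK-KO to WT against exon length on a log axis for 12410 genes above 0 in both samples that reached 1 FPKM in either (grey; 243 more lie outside the axes), the median of the 200 genes nearest in length (line) and the 6 genes (red). MLXIP lies 0.64 above the line, and TXNIP 0.46, ARRDC4 0.42 and MLXIPL 0.53 below it.

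MLX belongs to the wider MYC/MAX/MLX network, in which MAX pairs with MYC proteins and their antagonists. All 10 other genes of this network reached 1 FPKM, with a median log2 ratio of 0.21. Of these, 3 exceeded 1.5-fold in favour of PERK-KO and 1 was lower, beside 10.1% and 7.54% of all genes tested. MYC, the growth regulator, was at 14.1 FPKM (13.0 to 15.3) in WT and 34.5 (32.6 to 36.4) in PERK-KO, a ratio of 2.44. MGA, a large MAX partner, was at 2.14 (1.93 to 2.34) and 3.87 (3.57 to 4.18), a ratio of 1.81. MYCN was at 1.26 (0.930 to 1.58) in WT and 0.424 (0.224 to 0.623) in PERK-KO, a ratio of 0.337. MXD3 was the most abundant, with 74.9 FPKM and 56.6 FPKM. MYCL1, the other gene more than 1.5-fold higher, had overlapping limits at 0.924 (0.648 to 1.20) and 1.48 (1.12 to 1.85). The limits of the shared partners MLX and MAX overlapped. After the median of genes of similar length was subtracted, MYC stood at a log2 value of 1.31 and MYCN at -1.60, while MGA, with 12186 exon bases, went from 0.86 to 0.46 and was no longer past 1.5-fold. MYCL1 had no length, and the median of the 9 other network genes was then -0.06.

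Other genes reported as MondoA or ChREBP targets mostly had higher values in PERK-KO, whereas TXNIP and ARRDC4 had lower ones with overlapping limits. Of 16 listed, 10 reached 1 FPKM. Of these, 7 had a higher value in PERK-KO and 3 a lower one, beside 46.4% of all genes tested that were lower. The limits were apart for 7 of the higher and 1 of the lower genes, beside 44.8% of all genes in either direction. Past 1.5-fold, 3 were higher and none was lower, beside 10.1% and 7.54% of all genes tested. The median log2 ratio of the 10 genes was 0.43, or 0.23 after the median of genes of similar length was subtracted. HK2, which phosphorylates glucose, was at 10.1 FPKM (9.57 to 10.6) in WT and 19.9 (19.1 to 20.7) in PERK-KO, a ratio of 1.97. ACACA, acetyl-CoA carboxylase, had a ratio of 1.58 and PNPLA3, a lipid droplet protein, 1.57. After that subtraction 2 of these calls remained, HK2 at 0.77 and PNPLA3 at 0.61 on the log2 scale, and ACACA went from 0.66 to 0.32. SCD was the most abundant, with 139 and 186 FPKM. Several of these genes, such as ACACA, SCD and FASN, are also targets of SREBP. KLF10, a transcription factor induced by glucose, was named after its value had been seen, as the only listed target with limits that did not overlap and a lower value, at 21.2 FPKM (19.7 to 22.7) and 16.3 (15.0 to 17.7).

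The medium supplied galactose, which reaches glucose 6-phosphate through GALK1, GALT and PGM1. Of 17 genes of hexose entry, 14 reached 1 FPKM, with a median log2 ratio of -0.13. Past 1.5-fold, 2 were higher in PERK-KO (HK2 and SLC2A1) and 1 was lower (GALK1), beside 10.1% and 7.54% of all genes tested. SLC2A1, which encodes the glucose transporter GLUT1 that TXNIP removes from the membrane, was at 24.8 FPKM (23.2 to 26.4) in WT and 44.0 (41.5 to 46.5) in PERK-KO. GALK1, which phosphorylates galactose, was at 49.0 (46.1 to 51.9) and 29.9 (27.4 to 32.3), a ratio of 0.609. With the length neighbours subtracted, HK2 (0.77) and SLC2A1 (0.73) were still past 1.5-fold on the log2 scale, GALK1 went from -0.72 to -0.54 and was not, and the list median was -0.09. GPI was the most abundant, with 93.3 and 101 FPKM.

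Genes listed for their links to TXNIP and its relatives were also followed, at the mRNA level only. None of the 11 thioredoxin system genes was past 1.5-fold, and 10 of them had a lower value in PERK-KO, beside 46.4% of all genes tested. TXN, the thioredoxin that TXNIP inhibits, was at 729 FPKM (696 to 763) and 489 (465 to 513), with a log2 ratio of -0.58. Genes near TXN in length had a median log2 ratio of -0.40, and TXN stood at -0.17 once this was subtracted. The median log2 ratio of the list was -0.30. After the median of genes of similar length was subtracted it was -0.12, and 7 of the 11 were below 0. Over all genes tested the median after that subtraction was 0.00, so about as many genes lay below 0 as above it. PRDX4 was the most abundant of the list, with 906 and 662 FPKM. Of 9 ubiquitin ligases of the NEDD4 family, which bind alpha-arrestins, 7 reached 1 FPKM. More than 1.5-fold higher were 2 of these, beside 10.1% of all genes tested. They were SMURF2 with a ratio of 1.55 and SMURF1 with 1.52. The median log2 ratio of these 7 genes was 0.29, or 0.08 after the same subtraction, which left SMURF2 at 0.50 and SMURF1 at 0.39 and so 0 genes past 1.5-fold. ITCH, the ligase known to act on TXNIP, was the most abundant, with 11.5 FPKM in WT and 14.0 in PERK-KO. Of 7 AMPK subunit genes, 6 reached 1 FPKM, with a median log2 ratio of 0.03. PRKAB2 alone was past 1.5-fold, with 5.45 and 8.47 FPKM, beside 10.1% of all genes tested that were higher. Its log2 ratio of 0.63 became 0.46 with length subtracted, which is short of 1.5-fold. PRKAG1 was the most abundant, with 56.4 and 50.6 FPKM.

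Among 8 genes reported to link ER stress to TXNIP, the median log2 ratio was 0.14. Past 1.5-fold, 2 were higher in PERK-KO and none was lower, beside 10.1% and 7.54% of all genes tested. The 8 include EIF2AK3, the gene targeted in the PERK-KO cells. ERN1, which encodes the sensor IRE1, was at 0.951 FPKM (0.726 to 1.18) in WT and 2.07 (1.72 to 2.42) in PERK-KO. XBP1, its splicing substrate, was at 97.6 (93.0 to 102) and 187 (179 to 194). ATF4 was the most abundant, at 342 (326 to 358) and 506 (483 to 528), a ratio of 1.48. ATF5, a factor reported to raise TXNIP mRNA downstream of PERK, was at 36.4 (34.0 to 38.8) and 38.9 (36.2 to 41.5), and MIR17HG, the host of miR-17, which targets TXNIP mRNA, was at 12.5 (11.0 to 14.1) and 10.0 (8.67 to 11.4). The limits of both overlapped between the samples, as did those of TXNIP. With length subtracted, ERN1 (0.93) and XBP1 (1.05) were still past 1.5-fold on the log2 scale, and ATF4 (0.75) was then past it too. EIF2AK3 (-0.77), the targeted gene, was past it in the lower direction, and the list median was 0.31.

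**Figure D4:**
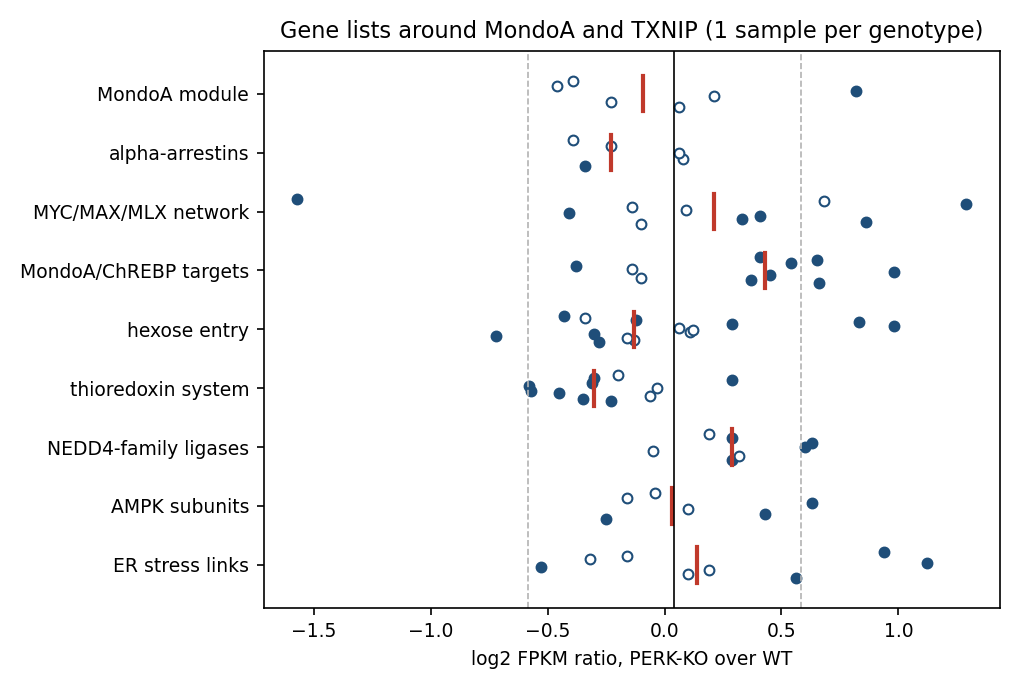
Log2 ratio of PERK-KO to WT for the genes of each list that reached 1 FPKM in either sample, with filled points where limits do not overlap and red bars at list medians. The black line is the median of all genes tested (0.04) and dashed lines mark 1.5-fold; HK2 appears in both the target list and the hexose list.

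The genes whose pair of levels lay nearest to those of each member were named over these 2 samples, by the distance on the log2 scale. For MLXIP they were TP53BP2 (11.5 FPKM in WT and 20.6 in PERK-KO, distance 0.033), GBF1 (11.7 and 19.4, distance 0.060) and BMI1 (11.9 and 19.8, distance 0.066). For TXNIP they were CC2D2B, PDGFRL and PCDHB9, at distances of 0.025, 0.030 and 0.043. For ARRDC4 they were ERCC8, ARHGEF4 and FAM117B, at distances of 0.011, 0.021 and 0.028. ARRDC3 lay nearest to NABP1 and MLX to RNF115, at 0.002 and 0.013, followed by SMPDL3B and ANKRD18A for ARRDC3 and by RFWD2 and GPC3 for MLX. With only 2 points a pattern is no more than a level and a ratio. Within a distance of 0.14 there were 11 genes for MLXIP, 60 for TXNIP, 94 for ARRDC4, 115 for ARRDC3 and 153 for MLX.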

How the data were processed

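mRNA was purified with poly(A) beads from 1 WT and 1 PERK-KO sample. According to the submitters' processing notes and the study's methods, reads were mapped to hg19 with TopHat2 2.0.13, and the authors deposited FPKM values per gene with confidence limits from Cufflinks 2.2.1. Read totals were not in the files analysed here, so depth is given only through those limits, as the number of fragments whose plain counting error would give the same interval (limits taken at 2 SD).

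Rows were matched by symbol. The ratio was PERK-KO over WT without a pseudocount. A gene counted as higher or lower past 1.5-fold if it reached 1 FPKM in either sample. Ratio ranges divide opposite limits. With 1 sample per genotype no test was made. Exon lengths came from the canonical transcript of GENCODE 44 on GRCh37, or the longest where none is marked, kept to the limits of the row; 87.6% of the genes tested had one. MLXIP had none marked. Upstream sequences came from RefSeq and were found in the GRCh37 sequence. Protein sequences were not analysed here.

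All 6 members, the listed genes past 1.5-fold with limits that do not overlap (at most 4 per list) and the most abundant of each list were named, with the 3 nearest patterns per member other than MLXIPL. Members and lists were chosen with earlier results of these data known. KLF10, MYCL1, ARRB2, ATF5, MIR17HG, the markers and the overlapping or family genes were named outside this rule. Other pseudocounts, scalings, filters, folds and a length correction were tried. The calculations were tested on simulated data. Python 3.11.15, numpy 2.4.6, pandas 2.3.3 and matplotlib 3.10.9 were used.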

Additional observations from a re-analysis of the deposited data

How the results depend on the processing

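No paired analysis was possible because each genotype has 1 sample, and for the same reason no replicate could be left out. For the members, 35 of 36 alternative log2 ratios stayed within the range that the confidence limits allow. The exception was MLXIP after the median of genes of similar length was subtracted, at 0.64 instead of 0.82, still past 1.5-fold. Under that alternative ARRDC3 went from 0.06 to -0.11. Much of this tally was fixed in advance, so it does not measure how robust the ratios are. Summing the rows of a symbol cannot change a member, since each has 1 row. Scaling to the median or to the 75th percentile moved every log2 ratio by only 0.04 or 0.05. At a 2-fold threshold the number of members higher was 0 instead of 1. Over all genes, the numbers higher and lower (1481 and 1100) were 479 and 304 at 2-fold, 2496 and 1942 for genes above 0 in both samples, 872 and 702 with an FPKM of at least 5 in either sample, and 954 and 692 after the length correction. A pseudocount of 1 gave 944 higher. These filters and thresholds admit other numbers of genes by construction. Setting the median to 0 shifted all log2 ratios by 0.04. Depth limits TXNIP and MLXIPL most.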
